A study of Rattus norvegicus with 8 samples.

Results

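The genes described here are 10 genes of the transforming growth factor beta (TGF-beta) pathway in the rat thyroid. They are the ligands Tgfb1, Tgfb2, and Tgfb3, the latent complex gene Ltbp1, the receptors Tgfbr1, Tgfbr2, and Tgfbr3, the signal transducer Smad3, and the feedback inhibitors Smad7 and Skil. They were chosen by symbol, and all 10 were found among the 30560 gene identifiers of the deposited count table. Where a gene had several of the 54991 transcripts, the transcript with the highest summed count was taken.

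Male Wistar rats, an outbred laboratory strain, were sham-exposed or given a single dose of 4 Gy of X-rays to the neck, and thyroid RNA was sequenced about 8 weeks later. Exposure was at 1 week of age in 1w0Gy (sham) and 1w4Gy (irradiated), and at 4 months in 4m0Gy (sham) and 4m4Gy (irradiated). Each group had 2 samples from different rats, those with the better RNA integrity in their group, and the body outside the neck was shielded with lead. The younger groups were also younger when the thyroid was taken, so that age at exposure and age at sampling cannot be told apart.

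TGF-beta ligands are secreted in a latent form that is tethered to the extracellular matrix and must be released before it can act. The free ligand brings together type I and type II receptor kinases, which phosphorylate Smad2 and Smad3, and these enter the nucleus and switch on matrix genes together with inhibitors of the pathway itself. In the thyroid, TGF-beta is known to restrain the growth of follicular cells, and in many irradiated tissues it is known as a driver of late fibrosis. The comparisons below ask whether these genes differed 8 weeks after irradiation and between the ages.

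Each sample had between 14835406 and 18138106 counts on genes, and thyroglobulin (Tg) took 18.5 to 21.3% of them. The 8 thyrocyte markers summed to between 189000 and 224000 CPM, the count scaled by the size of the library, with Slc26a4 below 1 CPM in all samples. Tg alone was at 182600 to 216500 CPM of this. The parathyroid markers Pth, Gcm2, and Casr summed to 343 CPM in sample 2 of 4m4Gy and to between 1940 and 5480 CPM in the other samples, so that this sample stood apart in these markers. Cdkn1a, the p53 target that halts the cell cycle after DNA damage, served as the reference for irradiation. It was at 15.1 and 14.4 CPM in 1w0Gy against 46.6 and 38.5 in 1w4Gy, and at 17.4 and 15.4 CPM in 4m0Gy and 46.4 and 38.1 CPM in 4m4Gy. It rose by 1.53 ± 0.12 (log2, SE) at 1 week and by 1.36 ± 0.13 at 4 months (edgeR adjusted p = 0.0329 and 0.0149). The irradiated samples of both ages lay above all sham samples for this gene. With all 8 samples and age in the fit, Cdkn1a rose by 1.45 ± 0.10 with irradiation (edgeR adjusted p = 0.000135). Its adjusted p was 0.0781 and 0.0888 at 1 week without sample 1 or 2 of 1w0Gy, and 0.151 at 4 months without sample 1 of 4m4Gy.

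All 10 genes were expressed in every sample, with between 205 and 4476 counts per sample. Dividing CPM by transcript length in kilobases allowed the genes to be compared with each other. On this scale Tgfbr2, the type II receptor that binds the ligand first, had the highest level, with a median of 47.8 CPM per kilobase and a range of 42.1 to 55.6 over the 8 samples. Tgfb1, the ligand that prevails in most adult tissues, followed at a median of 12.3 CPM per kilobase. The order then ran Tgfbr1 (8.55), Tgfbr3 (7.95), Skil (7.86), Smad3 (7.01), Tgfb3 (6.77), Ltbp1 (5.66), Tgfb2 (5.27), and Smad7 (4.77), as medians in CPM per kilobase. The range of Tgfbr2 over the 8 samples lay clear of all others, and each of the other genes overlapped the next in the order. Of the summed ligand level per kilobase, Tgfb1 made up 45.3 to 54.5%, Tgfb3 25.5 to 29.4%, and Tgfb2 17.5 to 25.6% in the 8 samples. The ratio of Tgfbr2 to Tgfbr1 per kilobase was 4.53 to 6.25. These levels depend on the transcript taken for the length. The second transcript of Ltbp1 held the same count as the first, and those of Tgfbr2, Skil, Smad3, and Smad7 held 86.1 to 99.5% of it, so that transcripts of a gene shared reads.

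**Figure D1:**
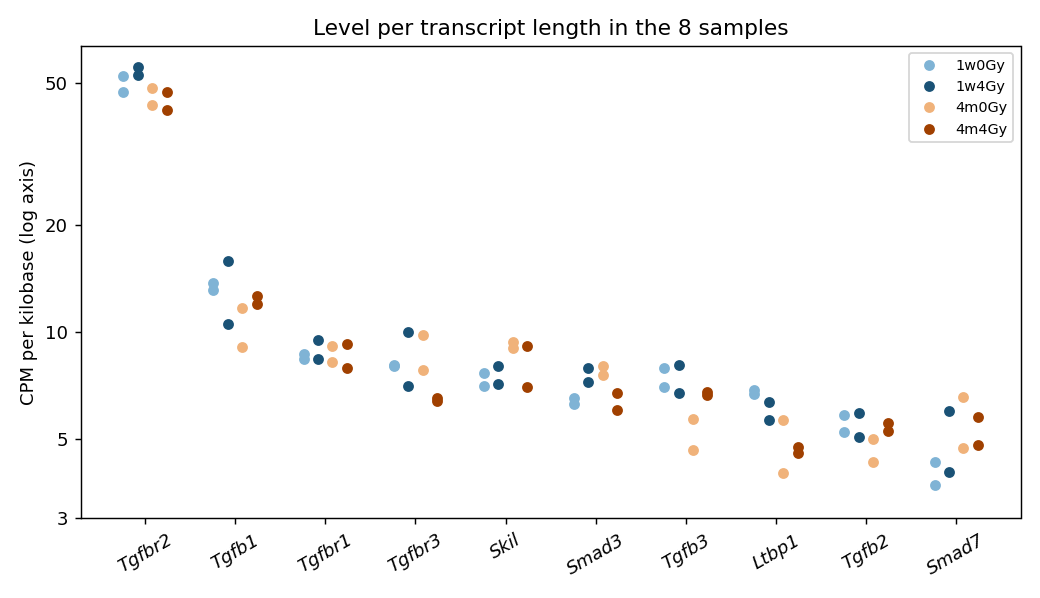
Level of each gene in the 8 samples in CPM per kilobase of transcript (log axis), ordered by median, with the 4 groups in different colors. Tgfbr2 lies at 42.1 to 55.6 CPM per kilobase in all samples, above every other gene, and the other 9 genes overlap their neighbors.

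The promoters were examined for short motifs of factors that act with or beside the pathway, in a window of 250 bases before to 50 bases after the start of each gene (RefSeq, assembly GRCr8). All 10 genes matched an entry. Both strands were searched. Ltbp1 and Skil are shown because they alone among the 10 held the cyclic AMP response element TGACGTCA, which was found in 1.83% of 33469 promoters of this length. They were also the only ones with the core Smad-binding letters CAGAC, which 50.1% of all promoters hold. Ltbp1 lies at chr6:26177252-26177551 on the minus strand, and Skil at chr2:114203523-114203822 on the minus strand. Capitals mark the response element and the Smad core, the latter read as GTCTG where it stands on the other strand.
Ltbp1: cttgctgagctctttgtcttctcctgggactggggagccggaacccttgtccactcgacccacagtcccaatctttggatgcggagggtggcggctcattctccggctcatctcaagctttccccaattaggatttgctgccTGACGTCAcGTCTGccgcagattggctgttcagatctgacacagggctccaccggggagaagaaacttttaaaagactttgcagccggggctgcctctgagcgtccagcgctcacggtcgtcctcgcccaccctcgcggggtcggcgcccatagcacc
Skil: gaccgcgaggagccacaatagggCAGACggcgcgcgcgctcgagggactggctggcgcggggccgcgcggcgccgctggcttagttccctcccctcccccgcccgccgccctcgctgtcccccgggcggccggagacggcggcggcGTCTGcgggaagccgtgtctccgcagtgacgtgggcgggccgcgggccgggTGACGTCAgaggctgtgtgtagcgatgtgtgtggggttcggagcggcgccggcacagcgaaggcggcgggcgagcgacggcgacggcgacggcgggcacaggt
In Ltbp1 the response element began 108 bases before the start and the Smad core followed with 1 base between them, and in Skil the response element began 53 bases before the start. The GC box GGGCGG stood in 6 of the 10 (Skil, Smad3, Smad7, Tgfbr1, Tgfbr2, and Tgfbr3) and in 33.1% of all promoters. The palindrome GTCTAGAC, the AP-1 site TGANTCA, and the TATA box TATAAA were in 0 of the 10 windows and in 0.197%, 7.33%, and 14.2% of all promoters. The motifs do not overlap one another in the windows shown, and a match of letters is not evidence of binding.

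None of the 10 genes was called for irradiation at 1 week by edgeR's quasi-likelihood test (0 of 10 at an adjusted p under 0.05, 1 at an unadjusted p under 0.05), where 0.00651% of 15359 genes were called and 5.68% had an unadjusted p under 0.05. DESeq2 also called 0 of 10. The smallest adjusted p was 0.875 (Smad3). Over the 10 genes, the lowest 95% limit on the fold change was 0.72 (Tgfb1) and the highest was 1.7 (Smad7). Both 1w4Gy samples lay above both 1w0Gy samples for 2 of the 10 genes (Tgfbr2 and Smad3) and below them for 1 (Ltbp1), against 17.7% and 17.8% of all genes tested. None was called for irradiation at 4 months either (0 of 10 by edgeR, 3 at an unadjusted p under 0.05), where 0.0197% of 15253 genes were called and 8.39% passed without adjustment. DESeq2 gave an adjusted p for 3 of the 10 genes in this comparison and called 0 of them. The 4m4Gy samples lay above both 4m0Gy samples for 3 genes (the 3 ligands) and below them for 2 (Tgfbr3 and Smad3), against 20.9% and 18.7% of all genes tested. The lowest 95% limit on the fold change was 0.603 (Tgfbr3) and the highest was 1.59 (Tgfb3). Over both ages, with 4 irradiated and 4 sham samples and age in the fit, 0 of 10 were called (0 at an unadjusted p under 0.05). Of 15684 genes, 0.0128% were called and 3.89% passed without adjustment. The lowest limit in this fit was 0.706 (Tgfbr3) and the highest was 1.39 (Smad7). With DESeq2 the last fit also called 0 of 10.

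**Figure D2:**
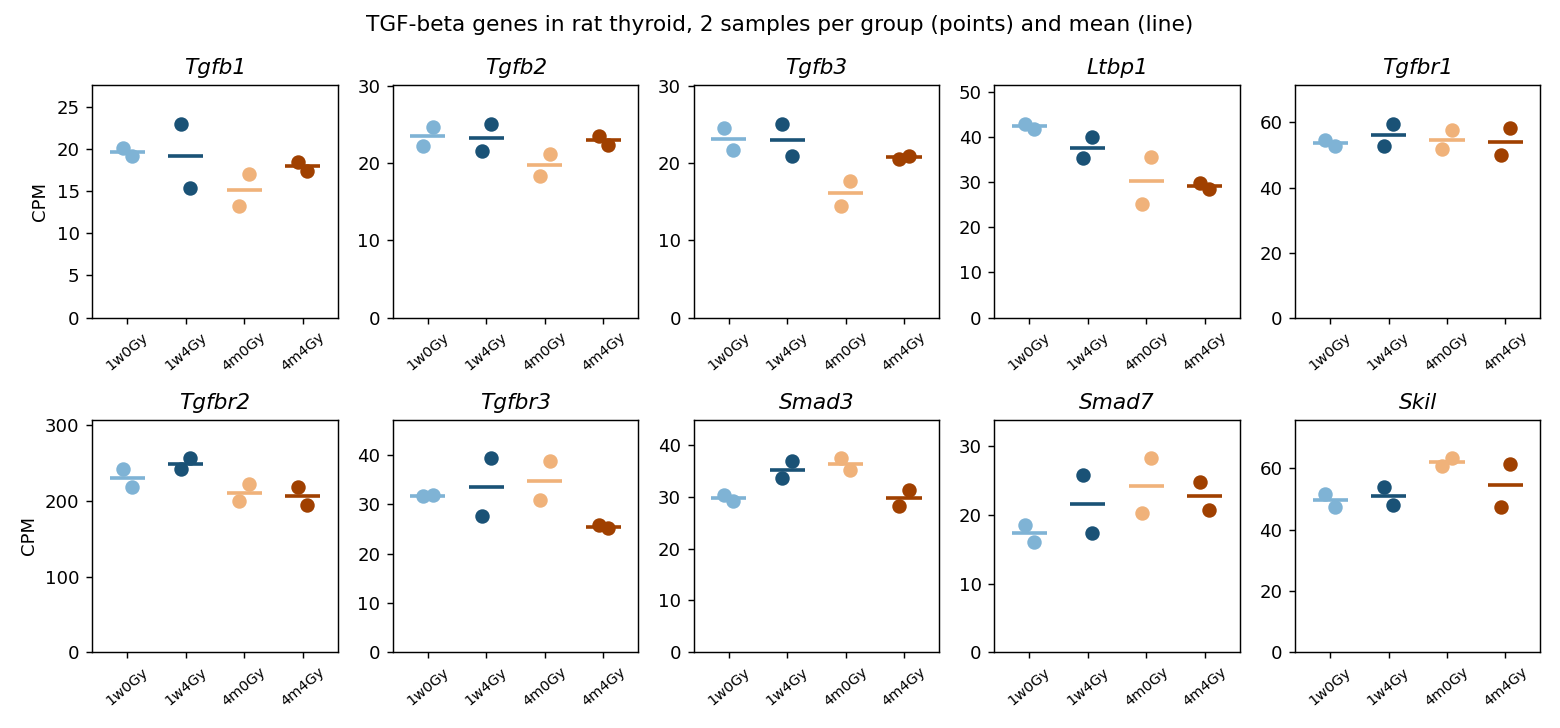
CPM of each gene in the 2 samples of each group (points) with the group mean (line), on linear axes from 0. The ligands are lowest in 4m0Gy, Smad3 is high in 1w4Gy and 4m0Gy, and Tgfbr3 is lowest in 4m4Gy at 25.8 and 25.3 CPM.

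In sham-irradiated rats the ligands and Ltbp1 lay lower and Smad3, Smad7, and Skil higher at the older age, and in irradiated rats Ltbp1 again lay lower, though none was called. The median absolute log2 difference of the 10 genes was 0.30 for age in sham-irradiated and 0.12 in irradiated rats, against 0.07 and 0.20 for irradiation at 1 week and at 4 months. That of all genes tested was 0.15, 0.16, 0.11, and 0.12 in the same order. In sham-irradiated rats, 0 of 10 were called by edgeR (6 at an unadjusted p under 0.05) where 1.06% of 15364 genes were called and 17.8% passed without adjustment. The 4m0Gy samples lay above both 1w0Gy samples for 3 genes (Smad3, Smad7, and Skil) and below them for 4 (the 3 ligands and Ltbp1), against 25.4% and 24.8% of all genes tested. In irradiated rats, 0 of 10 were called (2 at an unadjusted p under 0.05) where 0.89% of 15275 genes were called and 14.8% passed without adjustment. The 4m4Gy samples lay above both 1w4Gy samples for 0 genes and below them for 4 (Tgfbr2, Tgfbr3, Smad3, and Ltbp1), against 24.1% and 23.7% of all genes tested. DESeq2 called 0 of 10 in both. The sham and irradiated age comparisons share no sample, but each shares a group with both irradiation comparisons, so that the 4 sets of values are not independent.

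Among the ligands, Tgfb1 was at 20.1 and 19.2 CPM in 1w0Gy and at 23.0 and 15.3 in 1w4Gy, with 13.2 and 17.0 in 4m0Gy against 18.5 and 17.4 in 4m4Gy. The 1w4Gy samples were far apart and enclosed the sham samples of their age, and apart from 1 sample of 1w4Gy, both 4m0Gy samples were below all others. The log2 difference of 4m0Gy from 1w0Gy was -0.37 ± 0.15 (SE, edgeR adjusted p = 0.246), and that of 4m4Gy from 4m0Gy was 0.24 ± 0.15 (adjusted p = 0.723). Both turned on which 4m0Gy sample was kept: without sample 1 they were -0.21 and 0.071, and without sample 2 they were -0.57 and 0.43.

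Tgfb2, the isoform that needs a co-receptor to bind well, was at 22.2 and 24.7 CPM in 1w0Gy and 21.5 and 25.1 in 1w4Gy. In the older rats it was at 18.3 and 21.2 CPM in 4m0Gy and 23.6 and 22.3 in 4m4Gy. The younger groups overlapped fully, and both 4m0Gy samples were below the other 6. The log2 difference with age was -0.25 ± 0.12 in sham-irradiated rats and -0.02 ± 0.12 in irradiated rats (edgeR adjusted p = 0.336 and 0.961). The first was -0.14 without sample 1 of 4m0Gy and -0.36 without sample 2.

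Tgfb3, the isoform best known from palate and scar formation, was at 24.6 and 21.8 CPM in 1w0Gy and at 25.1 and 21.0 in 1w4Gy, with 14.5 and 17.7 in 4m0Gy against 20.6 and 21.0 in 4m4Gy. Both 4m0Gy samples were below the other 6, whose values lay close together. Its log2 difference with age in sham-irradiated rats was -0.52 ± 0.14 (edgeR adjusted p = 0.124), which was the largest among the ligands. Without sample 2 of 4m0Gy, the lower of the sham values alone remained for the older rats, and the difference was -0.68 with an adjusted p of 0.0182, while without sample 1 it was -0.39 with an adjusted p of 0.222. In the older rats, irradiated samples differed from sham by 0.36 ± 0.13 (adjusted p = 0.522), and by 0.22 without sample 1 of 4m0Gy.

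Ltbp1 encodes a protein that binds the latent ligand and anchors it in the matrix. It was at 42.9 and 41.8 CPM in 1w0Gy and at 35.3 and 39.9 in 1w4Gy, with 25.1 and 35.4 in 4m0Gy against 29.7 and 28.6 in 4m4Gy. It was the only one of the 10 genes that lay lower in older rats, without overlap, in both the sham and the irradiated comparison. The log2 differences were -0.48 ± 0.16 and -0.37 ± 0.11 (edgeR adjusted p = 0.209 and 0.175). In sham-irradiated rats, leaving out sample 2 of 4m0Gy gave -0.75 with an adjusted p of 0.00122, and leaving out sample 1 gave -0.26 with an adjusted p of 0.269. In irradiated rats, leaving out sample 1 of 1w4Gy gave -0.46 with an adjusted p of 0.0223, and leaving out sample 2 gave -0.27 with an adjusted p of 0.304. After irradiation at 1 week the difference was -0.17 ± 0.10 (adjusted p = 0.888), from -0.084 without sample 1 of 1w4Gy to -0.26 without sample 2.

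Of the receptors, Tgfbr1, the type I kinase, varied least among the 10 genes. Its 8 values lay between 49.9 and 59.6 CPM, and the 4 groups overlapped in all 4 comparisons. The 95% limits on its fold change were 0.901 and 1.22 for irradiation at 1 week and 0.846 and 1.15 for irradiation at 4 months. Tgfbr2 was at 242 and 218 CPM in 1w0Gy and at 243 and 256 in 1w4Gy, with 199.5 and 223 in 4m0Gy against 218 and 194 in 4m4Gy. Both 1w4Gy samples were above the other 6. The log2 difference was 0.12 ± 0.10 for irradiation at 1 week and -0.27 ± 0.10 for age in irradiated rats (edgeR adjusted p = 0.894 and 0.241). The first ranged from 0.046 without sample 2 of 1w0Gy to 0.20 without sample 1 of 1w0Gy.

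Tgfbr3 encodes betaglycan, a co-receptor without a kinase that presents ligand to the type II receptor. It was at 31.7 and 31.8 CPM in 1w0Gy and at 27.7 and 39.3 in 1w4Gy, with 30.8 and 38.7 in 4m0Gy against 25.8 and 25.3 in 4m4Gy. Both 4m4Gy samples were below all other samples. The log2 difference from 4m0Gy was -0.45 ± 0.12, which had the smallest adjusted p of the 10 genes for irradiation at 4 months (edgeR, 0.395). It was -0.61 with an adjusted p of 0.0179 without sample 1 of 4m0Gy, -0.28 with an adjusted p of 0.472 without sample 2 of 4m0Gy, and -0.45 without sample 2 of 4m4Gy, the sample low in parathyroid markers. The difference of 4m4Gy from 1w4Gy was -0.39 ± 0.17 (adjusted p = 0.339), and without sample 1 of 1w4Gy it was -0.63 with an adjusted p of 0.00335, while without sample 2 of 1w4Gy it was -0.11 with an adjusted p of 0.783. The samples of 1w4Gy lay far apart, as did those of 4m0Gy.

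Smad3, the transducer that carries the receptor signal to DNA, was at 30.4 and 29.1 CPM in 1w0Gy and 33.7 and 36.8 in 1w4Gy. In the older rats it was at 37.4 and 35.2 CPM in 4m0Gy and 28.1 and 31.4 in 4m4Gy. The irradiated samples were thus higher than sham at 1 week and lower at 4 months, with no overlap at either age. The log2 differences were 0.24 ± 0.10 and -0.29 ± 0.10 (edgeR adjusted p = 0.875 and 0.474). The difference between them was tested as the interaction of age and irradiation and was -0.53 ± 0.13 (edgeR adjusted p = 0.407 over 15684 genes, unadjusted 0.00257). Groups that lay apart in opposite directions at the 2 ages were found in 9.33% of all genes tested and in 1 of the 10 genes, Smad3. By the interaction test 0 of 10 genes and 0% of 15684 genes were called (2 of the 10 and 1430 of all, or 9.12%, at an unadjusted p under 0.05). DESeq2 called 26 genes and none of the 10, and edgeR called 22 without sample 1 of 1w4Gy. The other gene of the 10 was Tgfbr3, at -0.53 ± 0.23 (adjusted p = 0.544), and at -0.76 and -0.25 without sample 1 and sample 2 of 1w4Gy.

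**Figure D3:**
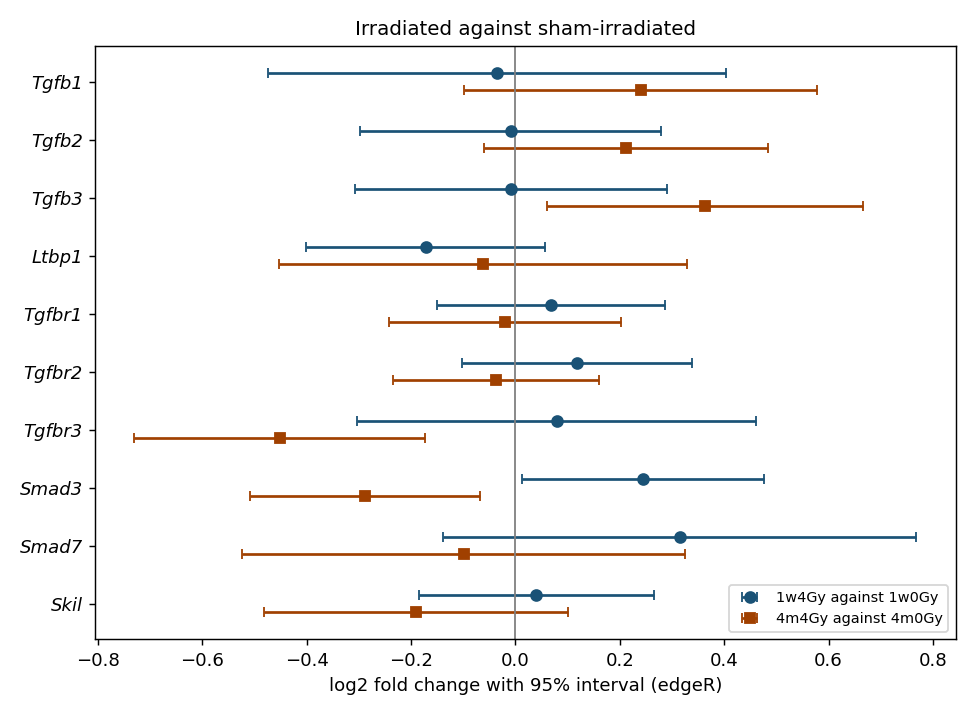
Log2 fold change of irradiated against sham-irradiated samples at 1 week (circles) and 4 months (squares), with unadjusted 95% intervals from edgeR. Smad3 is at 0.24 and -0.29, Tgfbr3 at 0.08 and -0.45, and no gene passed the adjusted threshold.

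The feedback inhibitors are genes that TGF-beta itself switches on and whose products hold the pathway back. Smad7, which competes for the receptor and marks it for breakdown, was at 18.6 and 16.0 CPM in 1w0Gy and at 25.7 and 17.4 in 1w4Gy, with 20.3 and 28.2 in 4m0Gy against 24.8 and 20.7 in 4m4Gy. The 2 samples of 1w4Gy, and those of 4m0Gy, were farther apart than any of the group means. In sham-irradiated rats the older samples differed by 0.49 ± 0.18 (log2, edgeR adjusted p = 0.226), and by 0.70 with an adjusted p of 0.0316 without sample 1 of 4m0Gy. Without sample 2 of 4m0Gy the difference was 0.23 with an adjusted p of 0.499.

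Skil, also known as SnoN, is a nuclear repressor of Smad target genes. It was at 51.6 and 47.5 CPM in 1w0Gy and at 54.0 and 48.0 in 1w4Gy, with 60.7 and 63.2 in 4m0Gy against 47.3 and 61.5 in 4m4Gy. Both 4m0Gy samples were above all 4 samples of the younger rats, while the 4m4Gy samples lay far apart. The log2 difference with age in sham-irradiated rats was 0.32 ± 0.08, which had the smallest adjusted p of any of the 10 genes in any comparison (edgeR, 0.103). In irradiated rats it was 0.10 ± 0.14 (adjusted p = 0.788).

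Among the matrix and fibrosis genes that TGF-beta is known to induce, the fibrillar collagens and Sparc fell with age, and none was called for irradiation. Of 15 such genes tested, 7 were called lower with age in sham-irradiated rats and 6 in irradiated rats. Over all genes, 83 of 15364 and 58 of 15275 were called lower (called in either direction, 1.06% and 0.89%). The log2 difference was below 0 for 14 and 11 of the 15. For irradiation 0 of the 15 were called at 1 week or at 4 months (1 at an unadjusted p under 0.05 at each age). DESeq2, which gave an adjusted p for 14 of them at 1 week and 9 at 4 months, called 0 of those. The median log2 difference with age was -0.99 and -0.65, while that of all genes tested was 0.00 in both. Col1a1, a chain of type I collagen, was at 657 and 514 CPM in 1w0Gy and at 554 and 437 in 1w4Gy, with 79.3 and 110 in 4m0Gy against 91.9 and 96.7 in 4m4Gy. It fell by 2.62 ± 0.22 (log2) in sham-irradiated and by 2.39 ± 0.13 in irradiated rats (edgeR adjusted p = 0.0316 and 0.000896). Col1a2, Col3a1, Col5a1, and the matrix protein Sparc were also called lower in both. Postn and Tgfbi were called lower in sham-irradiated rats only, and Fn1 in irradiated rats only. Each of them lay lower in the older samples without overlap in both comparisons. The differences between these comparisons were not called (edgeR interaction adjusted p of 0.424, 0.475, and 0.913). Without sample 1 of 1w0Gy, 1 of the 15 genes was called lower in sham-irradiated rats, and without sample 2 of 1w0Gy, 3 were.

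Fibroblast markers were lower in the older rats too. The 8 markers, none of them below 1 CPM throughout, summed to between 1180 and 1360 CPM in 1w0Gy and 1060 and 1190 in 1w4Gy, and to between 717 and 931 in 4m0Gy and between 845 and 899 in 4m4Gy. The 8 macrophage markers summed to between 220 and 266 CPM in 1w0Gy and at 230 and 235 in 1w4Gy, with 131 and 196 in 4m0Gy against 161 and 166 in 4m4Gy. The part of either in the lower ligand, Ltbp1, and matrix values was not tested. In bulk RNA, fewer cells of a type and less RNA per cell cannot be told apart. The 8 endothelial markers summed to 853 to 884, 987 to 1040, 770 to 913, and 892 to 910 CPM in the same order of groups. Their sums were highest in both 1w4Gy samples, as was Tgfbr2. For irradiation at 1 week 0 of the 8 were called by edgeR, where 0.00651% of all genes were. At an unadjusted p under 0.05 there were 5 of the 8, against 5.68% of all genes. The part of endothelial cells in the Tgfbr2 values was not tested.

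**Figure D4:**
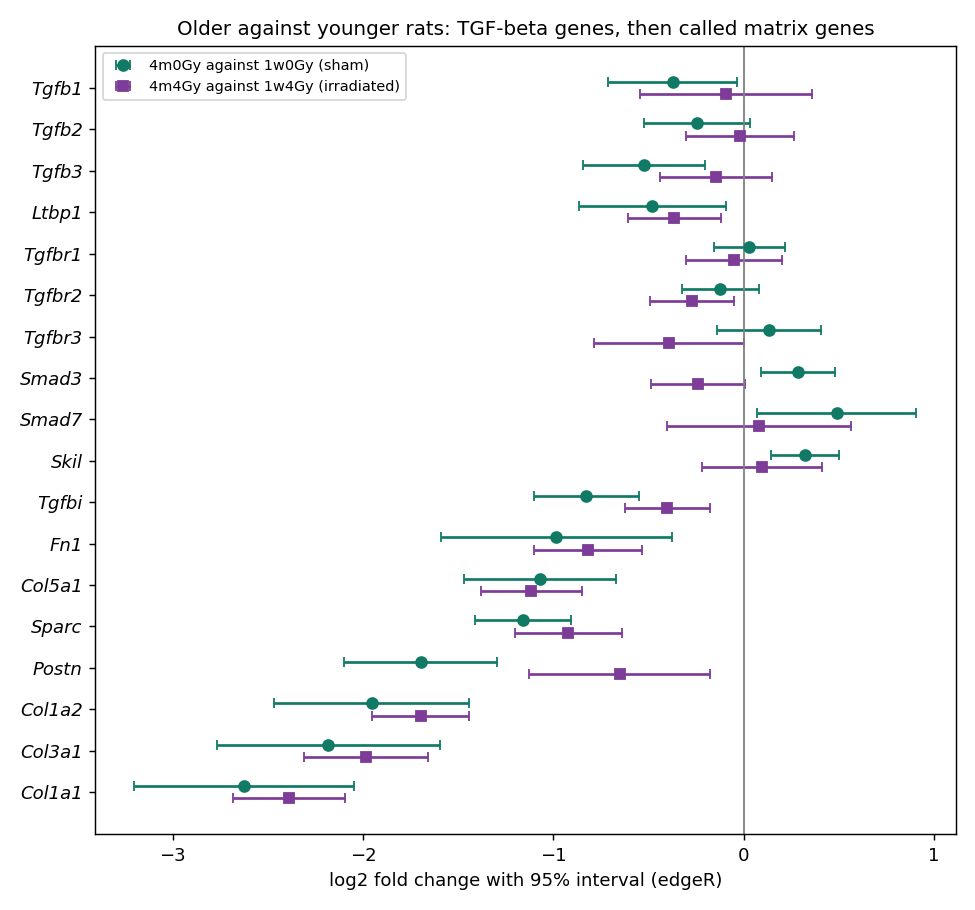
Log2 fold change of older against younger rats, sham-irradiated (circles) and irradiated (squares), with unadjusted 95% intervals from edgeR, for the 10 pathway genes and then the 8 matrix genes called in at least 1 of these comparisons. The pathway genes lie between -0.52 and 0.49, and Col1a1 lies at -2.62 and -2.39.

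Genes that release or store the ligand were compared as a further list of 12. Fbn1, the fibrillin that the latent complex attaches to, was at 80.1 and 68.0 CPM in 1w0Gy and at 74.7 and 68.5 in 1w4Gy, with 28.6 and 38.2 in 4m0Gy against 33.5 and 39.8 in 4m4Gy. It fell by 1.15 ± 0.16 in sham-irradiated and by 0.96 ± 0.11 in irradiated rats (log2, edgeR adjusted p = 0.0472 and 0.011). Thbs1, a matrix protein that can free the ligand from its latent form, fell by 0.47 ± 0.07 in sham-irradiated rats (adjusted p = 0.0375), and in irradiated rats it differed by -0.38 ± 0.08 (adjusted p = 0.0872). These were 2 of 12 called in sham-irradiated and 1 of 12 in irradiated rats, where 1.06% and 0.89% of all genes tested were called. No other gene of this list was called by edgeR in the 6 comparisons. DESeq2 called 1 higher and 2 lower in sham-irradiated rats and 1 lower in irradiated rats. Of 8 further receptor and transducer genes and 11 further negative regulators, 0 were called in any comparison by edgeR, and 0 by DESeq2 among those it gave an adjusted p, which at 4 months were 5 of each list. At an unadjusted p under 0.05 there were 0 to 1 of each list in a comparison. In irradiated rats, Dab2, an adaptor of the receptors, differed by -0.34 ± 0.12 with age (adjusted p = 0.241), and Smad6, the other inhibitory Smad, by 0.40 ± 0.13 (adjusted p = 0.202).

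The genes most like each ligand were sought by Pearson's r of log2 CPM over the 8 samples. The search covered 15684 genes, of which those without a symbol were left out of the ranking. They were Lhfpl6, Arhgdib, and Sh3rf3 for Tgfb1 (r = 0.974, 0.973, and 0.964). For Tgfb2 they were Stk11, Dus3l, and Tapbp (r = 0.978, 0.973, and 0.955). For Tgfb3 they were Mrpl42, Hacl1, and Fbln2 (r = 0.982, 0.98, and 0.973). Spearman's rho of the 9 pairs was 0.905 to 0.976, and r over the 6 samples left without those farthest from the median of the ligand was 0.878 to 0.977. The 8 points share 4 groups, and the genes are the best of those with a symbol among 15684. These values therefore describe the samples and are given without a test. None of the 3 lists shared a gene.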

How the data were processed

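Thyroid RNA-Seq of 8 samples, 2 per group, was analysed from raw read counts per transcript, which the authors deposited after mapping with HISAT2 2.2.1 and counting with featureCounts 2.0.0, per the labels. The genome build is not given in the sources used here, and the strand setting of the counting was not stated. The deposited RPKM and TPM were not used. The transcript with the highest summed count was taken per gene. CPM used TMM library sizes.

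The tests were edgeR 4.0.16 (R 4.3.3) quasi-likelihood fits with robust estimation of the spread, TMM, filterByExpr by group, and Benjamini-Hochberg adjustment over all genes, called under 0.05. The irradiation and age comparisons used the 4 samples they compare, and all 8 samples entered the interaction and the irradiation term over both ages. The 10 genes, the 5 further gene lists, the 10 marker lists, and the tests were chosen with earlier results of these data known, and the robust setting was adopted after the data were seen, following that earlier processing. All 10 genes were named, with Cdkn1a, the called genes of each further list or the 2 with the smallest p, and the 3 genes most like each ligand. Of 147 listed symbols, 4 were not in the counts. The values of 1 listed gene are not reported here. The scripts were tested on simulated counts. The alternatives were DESeq2 1.42.0, other size factors, no filter, sums over transcripts, the replicate number as a block, all 8 samples, no robust estimation, and leaving out each sample. Counts between replicates differed by more than counting noise (chi-square per degree of freedom 8.44 to 17.3), so that the spread between 2 rats limits the precision.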

Additional observations from a re-analysis of the deposited data

Results flagged for a closer look

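Smad3 was higher in both irradiated samples than in both sham samples at 1 week and lower in both at 4 months, so that the samples of the 2 ages moved in opposite directions. The interaction of age and irradiation was -0.53 on the log2 scale and was not called by edgeR (adjusted p = 0.407). Its value ranged from -0.62 to -0.45 when each of the 8 samples was left out in turn, with adjusted p-values between 0.129 and 0.827 over all 14 alternatives. Opposite directions of this kind were present in 9.33% of all genes tested.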

How the results depend on the processing

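With 2 samples per group, 1 sample decided the direction or the call of several values, and no other choice did so for the 10 genes. Their 60 log2 differences were recomputed under 723 alternatives in all, of which 678 kept the direction and the side of the threshold. All 39 changes of sign and all 6 gained calls came from leaving out 1 sample. The 6 gained calls are given in the report, each beside the value without the other sample of the same group. DESeq2 left 7 of the 10 genes, and Cdkn1a, without an adjusted p for irradiation at 4 months. The 3 that had one, Tgfbr1, Tgfbr2, and Skil, had the highest summed counts of the 10. For Cdkn1a the unadjusted DESeq2 p there was 1.52e-13 (log2 difference 1.36), so that a missing adjusted p does not mean a weak difference. Sums over transcripts count reads that transcripts of a gene share more than once, which limits that alternative. The edgeR adjusted p of Cdkn1a with such sums was 0.295 at 1 week and 0.147 at 4 months. Without robust estimation it was 0.0811 and 0.104. In the other edgeR fits that left out no sample it was under 0.05 at both ages, such as 0.000136 and 5.85e-07 without a filter. DESeq2 gave 2.96e-12 at 1 week. The causes were not tested.

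For irradiation at 1 week, the log2 differences without 1 sample ranged from -0.35 to 0.23 for Tgfb1, -0.12 to 0.10 for Tgfb2, -0.14 to 0.12 for Tgfb3, -0.023 to 0.15 for Tgfbr1, -0.20 to 0.31 for Tgfbr3, and -0.044 to 0.12 for Skil. For irradiation at 4 months they ranged from -0.15 to 0.088 for Tgfbr1, -0.13 to 0.037 for Tgfbr2, -0.32 to 0.15 for Smad7, and -0.29 to 0.20 for Ltbp1. For age in sham-irradiated rats they ranged from -0.051 to 0.10 for Tgfbr1 and -0.045 to 0.29 for Tgfbr3. For age in irradiated rats they ranged from -0.35 to 0.22 for Tgfb1, -0.13 to 0.10 for Tgfb2, -0.17 to 0.054 for Tgfbr1, -0.17 to 0.39 for Smad7, and -0.11 to 0.27 for Skil. For the interaction they ranged from -0.21 to 0.024 for Tgfbr1 and -0.11 to 0.38 for Ltbp1. For irradiation over both ages they ranged from -0.017 to 0.079 for Tgfbr1, -0.0046 to 0.086 for Tgfbr2, -0.095 to 0.069 for Smad3, -0.057 to 0.25 for Smad7, and -0.13 to 0.022 for Skil.

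The number of genes called over the whole table moved more. For irradiation at 1 week (1 gene called) it was 21 with DESeq2, 5 without a filter, 0 with sums over transcripts or without robust estimation, and 2 to 61 without 1 sample. For irradiation at 4 months (3 genes) it was 9 with DESeq2, 81 without a filter, 0 with sums over transcripts or without robust estimation, 1 in the fit of all 8 samples, and 3 to 116 without 1 sample. For age in sham-irradiated rats (163 genes) it was 346 with DESeq2, 507 without a filter, 27 with sums over transcripts, and 12 to 746 without 1 sample. For age in irradiated rats (136 genes) it was 292, 428, and 44 in the same order, 69 without robust estimation, and 28 to 1276 without 1 sample. For the interaction (0 genes) it was 26 with DESeq2, 7 without a filter, and 0 to 22 without 1 sample. For irradiation over both ages (2 genes) it was 12 with DESeq2, 1 without robust estimation, and 1 to 5 without 1 sample. Of the 15 matrix genes, 4 were called lower in sham-irradiated rats without a filter, and 1 to 10 without 1 sample.

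The samples share a replicate number across groups, but same-numbered samples did not deviate together (r of -0.231 to 0.152 across genes between pairs of groups), so that the numbers were not taken as pairs. With the replicate number as a block, 23 genes were called for irradiation at 1 week, 59 at 4 months, 13 for age in sham-irradiated rats, and 730 for age in irradiated rats, and 1 matrix gene was called lower in sham-irradiated rats. With the numbers crossed, added after the data were seen, 340 genes were called for age in sham-irradiated rats.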

Other observations

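The bone morphogenetic protein (BMP) and activin arm, which shares the Smad4 partner and the receptor architecture with TGF-beta, had 16 of 19 listed genes that could be tested. None was called by edgeR in any of the 6 comparisons. DESeq2 called 2 higher with age in sham-irradiated rats and none elsewhere among the genes it gave an adjusted p, which were 9 of the 16 for irradiation at 4 months and 13 to 16 in the other comparisons. By edgeR 8 of the 16 had an unadjusted p under 0.05 for age in sham-irradiated rats, as did 17.8% of 15364 genes. Bmpr2, the type II BMP receptor, was at 36.6 and 40.3 CPM in 1w0Gy and at 43.4 and 49.9 in 1w4Gy, with 50.6 and 53.4 in 4m0Gy against 34.8 and 40.7 in 4m4Gy. Its irradiated samples were above sham at 1 week and below sham at 4 months, and the interaction was -0.74 ± 0.15 on the log2 scale (edgeR adjusted p = 0.322). Groups apart in opposite directions at the 2 ages were found in 9.33% of all genes tested. For the interaction, 3 of the 16 genes had an unadjusted edgeR p under 0.05, as did 9.12% of 15684 genes. Bmpr1a, a type I receptor, had an interaction of -0.45 ± 0.12 (adjusted p = 0.407). For age in sham-irradiated rats, the smallest adjusted p-values were 0.0579 for Bmpr2 (0.44 ± 0.08) and 0.061 for Id3, a BMP target (0.38 ± 0.07).

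The C cell markers summed to 3630 to 5840, 3410 to 3880, 6350 to 7190, and 7380 to 8520 CPM in 1w0Gy, 1w4Gy, 4m0Gy, and 4m4Gy. Most of these sums came from Calca and Chga, which parted in sample 2 of 4m4Gy. Calca was highest there, at 6769 CPM, while Chga was at 299 CPM against 1112 to 2448 in the other samples. The parathyroid marker Pth was also lowest in that sample, at 298 CPM against 1848 to 5306 in the others. The part of parathyroid tissue in the Chga values was not tested, so that the C cell sums may not describe C cells alone. The adipocyte markers summed to 488 to 620, 332 to 341, 206 to 406, and 172 to 229 CPM in the same order of groups. In 4m0Gy the lower adipocyte sum was that of sample 1. The skeletal muscle markers lay between 8.03 and 91.5 CPM. The lymphocyte markers did not exceed 4.82 CPM, and those of cartilage and trachea did not exceed 1.39 CPM.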
